A study of Mus musculus with 10 samples.

Results

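Astrocytes and the radial glia they descend from were read through 37 genes in hindbrain and rostral cord of Nkx2.2-/- mice and wild-type (WT) mice shortly after birth. Every probe set whose platform gene symbol field includes a listed gene was taken, which gave 89 of the 45037 probe sets tested and 37 of 18193 genes. By role, 5 are radial glia genes and 32 are astrocyte genes. The Nkx2.2-/- group held 5 mice (replicates 11, 12, 22, 29 and 43) and the WT group 5 littermate mice (replicates 14, 15, 16, 18 and 21), 1 array a mouse. All were of the C57BL/6 strain and were perfused at 1.5 to 2 days after birth, and RNA came from pons, medulla and rostral spinal cord taken from frozen sagittal sections of 20 µm. The sources used here do not give how the Nkx2.2 allele was made or which mice shared a litter. The study asked which transcripts differ between the 2 genotypes.

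Radial glia line the ventricles of the embryonic nervous system, where they divide and give rise to neurons, then to oligodendrocytes and astrocytes. Around birth they leave the ventricular zone and many become astrocytes, which take up glutamate and potassium, wrap synapses and vessels, and secrete lipoproteins and matrix proteins. Nkx2.2 is a transcription factor of ventral progenitors and of cells of the oligodendrocyte lineage, where it promotes differentiation. The genes of the other glial lineage bear on whether its loss is seen in astrocytes too.

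Values are log2 expression after RMA (robust multi-array average, which corrects background, draws all arrays to 1 distribution and joins the probes of each set into 1 value). A difference of 1 is 2-fold, and every difference is Nkx2.2-/- minus WT. Where all mice are listed, Nkx2.2-/- values stand for replicates 11, 12, 22, 29 and 43 and WT values for replicates 14, 15, 16, 18 and 21, in that order. Array medians lay between 5.07 and 5.12, and correlations between arrays between 0.973 and 0.996. The Nkx2-2 probe set averaged 4.51 ± 0.21 in Nkx2.2-/- mice and 6.55 ± 0.19 in WT mice (SD, n = 5 each), a difference of -2.05 (adjusted p = 7.2e-05, limma with Benjamini-Hochberg adjustment over all probe sets). The sources used here do not say whether that probe set lies within the deleted part of the gene. Of 7 oligodendrocyte genes measured, 6 were called lower, with a median difference of -0.97, and Mbp, which encodes myelin basic protein, averaged 8.05 ± 0.50 in Nkx2.2-/- mice and 10.79 ± 0.24 in WT mice. Nkx2.2-/- replicate 43 and WT replicate 14 had a gap between the 3 prime and 5 prime Gapdh control probe sets of 3.78 and 2.13, against -0.32 to 0.13 on the other 8 arrays.

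Among the astrocyte and radial glia genes no probe set passed. At an adjusted p under 0.05 (limma, Benjamini-Hochberg), 0 of 89 member probe sets were called in either direction, where 0.0511% of all probe sets were called, all of them lower. The lowest adjusted p of any member probe set was 0.847, for a probe set of Clu, and that of each gene's brightest probe set was 0.9997 throughout. At an unadjusted p under 0.05, 9 of 89 member probe sets were past this looser threshold, where 3.43% of all probe sets were. Of the 9, 8 were lower and 1 was higher, beside 2.35% lower and 1.08% higher over all probe sets. Those 8 belong to 4 genes: Clu, Vim, S100b and Aldh1l1. With the brightest probe set standing for a gene, 4 of 37 were lower and 0 higher by the same rule, where 3.01% of all genes were lower and 0.682% higher. No member probe set had groups that did not overlap, which 0.442% of all probe sets had with Nkx2.2-/- below WT and 0.315% with Nkx2.2-/- above.

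The genes lay on both sides of 0. Of the 37 differences, 20 were positive and 17 negative, with a median of 0.013, beside a median of -0.0042 over all genes. The most negative was Vim at -0.39 and the most positive Slc1a2 at 0.30. Every 95% interval lay between -0.71 and 0.73, so a 2-fold difference in either direction falls outside the interval of each of the 37 genes. All 5 radial glia genes were negative, with a median of -0.10, while 20 of 32 astrocyte genes were positive, with a median of 0.035. The contrast between these medians was not tested. In bulk tissue, fewer cells of a type and less RNA per cell cannot be told apart.

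**Figure D1:**
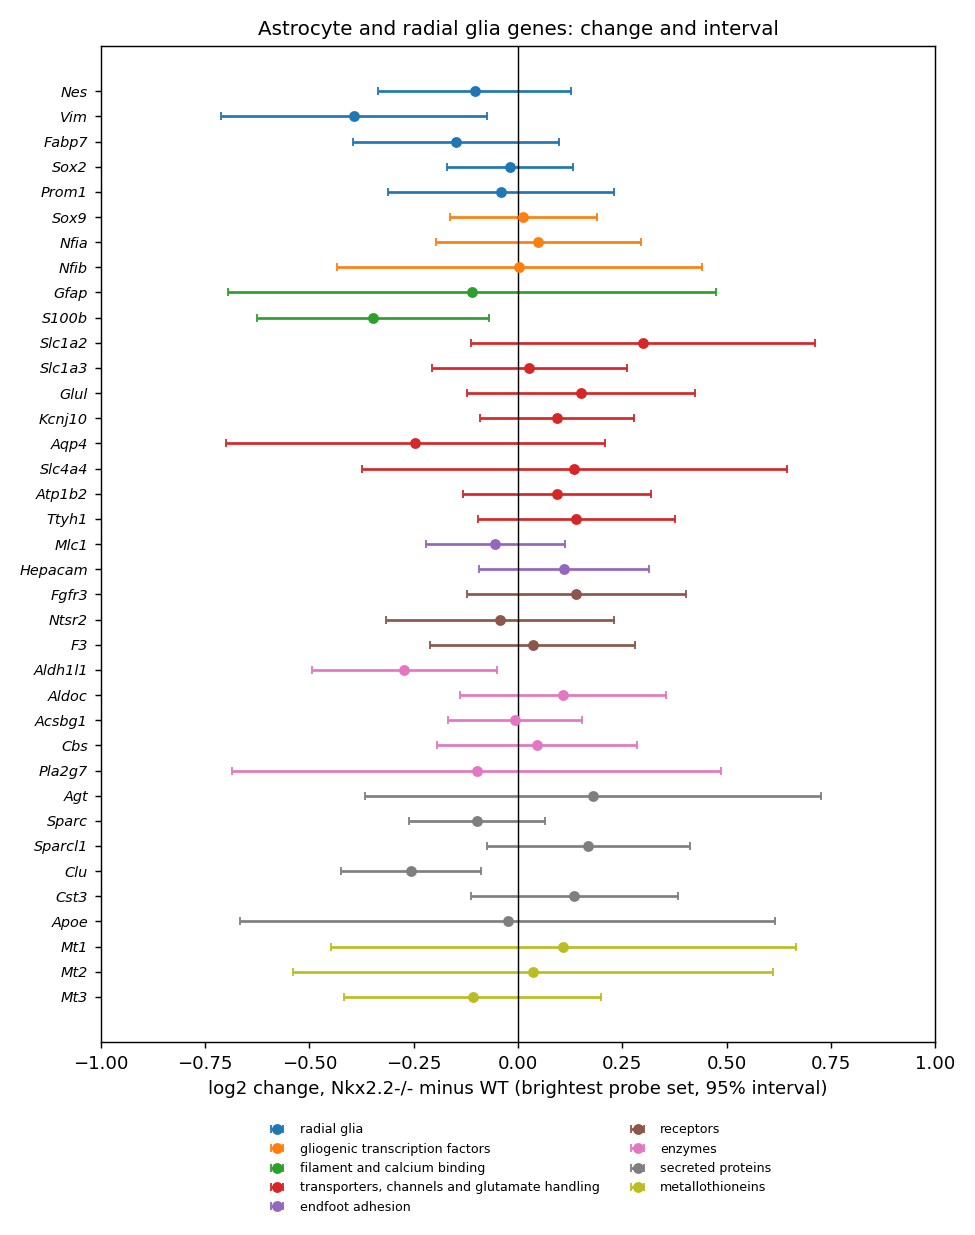
Log2 difference, Nkx2.2-/- minus WT, of each gene's brightest probe set (point) with its 95% interval (line), n = 5 mice a group, coloured by role. The points run from -0.39 (Vim) to 0.30 (Slc1a2), and the intervals of Vim, S100b, Aldh1l1 and Clu are the ones that lie wholly on one side of 0.

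The radial glia genes encode filament proteins, a lipid carrier, a stem cell transcription factor and an apical membrane protein. Vim encodes vimentin, the intermediate filament of radial glia and immature astrocytes, and its values were 8.86, 8.62, 8.17, 8.60 and 8.64 in the Nkx2.2-/- mice, against 8.77, 8.90, 8.79, 9.43 and 8.98 in the WT mice. WT replicates 15, 18 and 21 lay above all 5 Nkx2.2-/- mice, while WT replicates 14 and 16 lay below Nkx2.2-/- replicate 11, so the groups overlapped. The difference was -0.39 (95% interval -0.71 to -0.075), which is 1.31-fold, with an unadjusted p of 0.0199. The other 2 Vim probe sets gave -0.29 and -0.39. The brightest Vim probe set carries the maker's suffix for probes that can match other transcripts, and the other 2 do not. Vimentin is also made by dividing progenitors, by meninges and by vessels. All 11 genes of dividing cells were negative here, with a median of -0.48 and 8 of them at an unadjusted p under 0.05 (0 passed the adjusted threshold). With the mean of that list as a covariate, the Vim difference was -0.044. That mean ran from -0.40 to 0.21 in Nkx2.2-/- mice and from 0.065 to 0.68 in WT mice. Only Nkx2.2-/- replicate 11 reached the WT range, so the fit separates the list poorly from genotype. The part of dividing cells in the Vim values was not tested.

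Nes encodes nestin, the intermediate filament of neural progenitors. It measured 6.78, 6.58, 6.63, 6.40 and 6.18 in the Nkx2.2-/- mice, against 6.54, 6.66, 6.51, 6.82 and 6.55 in the WT mice. Every WT value lay within the range of the Nkx2.2-/- mice apart from the highest, that of replicate 18. The difference was -0.10 (95% interval -0.33 to 0.13), and the other 2 probe sets gave -0.012 and -0.028. Fabp7 encodes the brain lipid binding protein that marks radial glia and young astrocytes, with values of 11.97, 11.77, 12.07, 11.94 and 11.59 in the Nkx2.2-/- mice, against 11.68, 12.06, 12.26, 12.03 and 12.07 in the WT mice. Nkx2.2-/- replicate 43 and WT replicate 14 were the lowest of their groups, the arrays with the wide Gapdh gap, and the groups overlapped over most of their range. The difference was -0.15 (95% interval -0.40 to 0.099). Sox2, the transcription factor that keeps progenitors undifferentiated, averaged 8.81 ± 0.14 in Nkx2.2-/- mice and 8.83 ± 0.088 in WT mice (SD, n = 5 each). Prom1, which encodes the apical membrane protein prominin, averaged 6.49 ± 0.22 in Nkx2.2-/- mice and 6.53 ± 0.22 in WT mice. The differences of Sox2 and Prom1 were -0.019 and -0.041, both smaller than the spread between mice.

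Sox9, Nfia and Nfib are the transcription factors that open gliogenesis and stay on in astrocytes. Sox9 measured 5.89, 5.64, 5.66, 5.73 and 5.67 in the Nkx2.2-/- mice, against 5.56, 5.63, 5.56, 5.89 and 5.88 in the WT mice. The 3 highest values, from Nkx2.2-/- replicate 11 and WT replicates 18 and 21, came from both genotypes. The difference was 0.013 (95% interval -0.16 to 0.19), and the other 2 Sox9 probe sets gave -0.076 and -0.049. Nfia averaged 7.81 ± 0.15 in Nkx2.2-/- mice and 7.76 ± 0.23 in WT mice, and Nfib 8.50 ± 0.23 in Nkx2.2-/- mice and 8.50 ± 0.45 in WT mice. Of 6 Nfia probe sets 4 were positive, and of 7 Nfib probe sets 5 were positive, with differences from -0.073 to 0.071 for Nfia and from -0.17 to 0.15 for Nfib.

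Gfap, which encodes the glial fibrillary acidic protein of mature and reactive astrocytes, measured 5.83, 6.99, 6.83, 7.06 and 7.14 in the Nkx2.2-/- mice, against 7.24, 6.82, 7.37, 6.36 and 6.61 in the WT mice. Nkx2.2-/- replicate 11 stood about 1 unit below the next lowest mouse of its group, and WT replicates 18 and 21 were the lowest of theirs, while the other values of both groups intermingled. The difference was -0.11 (95% interval -0.70 to 0.47), and all 3 Gfap probe sets gave -0.11. Without Nkx2.2-/- replicate 11 it was 0.12, and on the 8 arrays without that mouse and WT replicate 18 it was -0.0070. The alternatives ran down to -0.79, with the list of dividing cells as a covariate, where the unadjusted p was 0.00362 and the adjusted p was 0.999953 (limma, Benjamini-Hochberg). As for Vim, that covariate separates poorly from genotype.

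S100b encodes a calcium binding protein of astrocytes that maturing oligodendrocytes also make, and its values were 6.56, 7.02, 7.31, 7.20 and 7.01 in the Nkx2.2-/- mice, against 7.53, 7.44, 7.31, 7.16 and 7.41 in the WT mice. Nkx2.2-/- replicate 11 was again the lowest of its group, and Nkx2.2-/- replicates 22 and 29 lay within the WT range. The difference was -0.35 (95% interval -0.63 to -0.071), or 1.27-fold, with an unadjusted p of 0.0186, and the other S100b probe set gave -0.29. The oligodendrocyte genes were lower in the same mice, and their part in the S100b values was not tested.

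**Figure D2:**
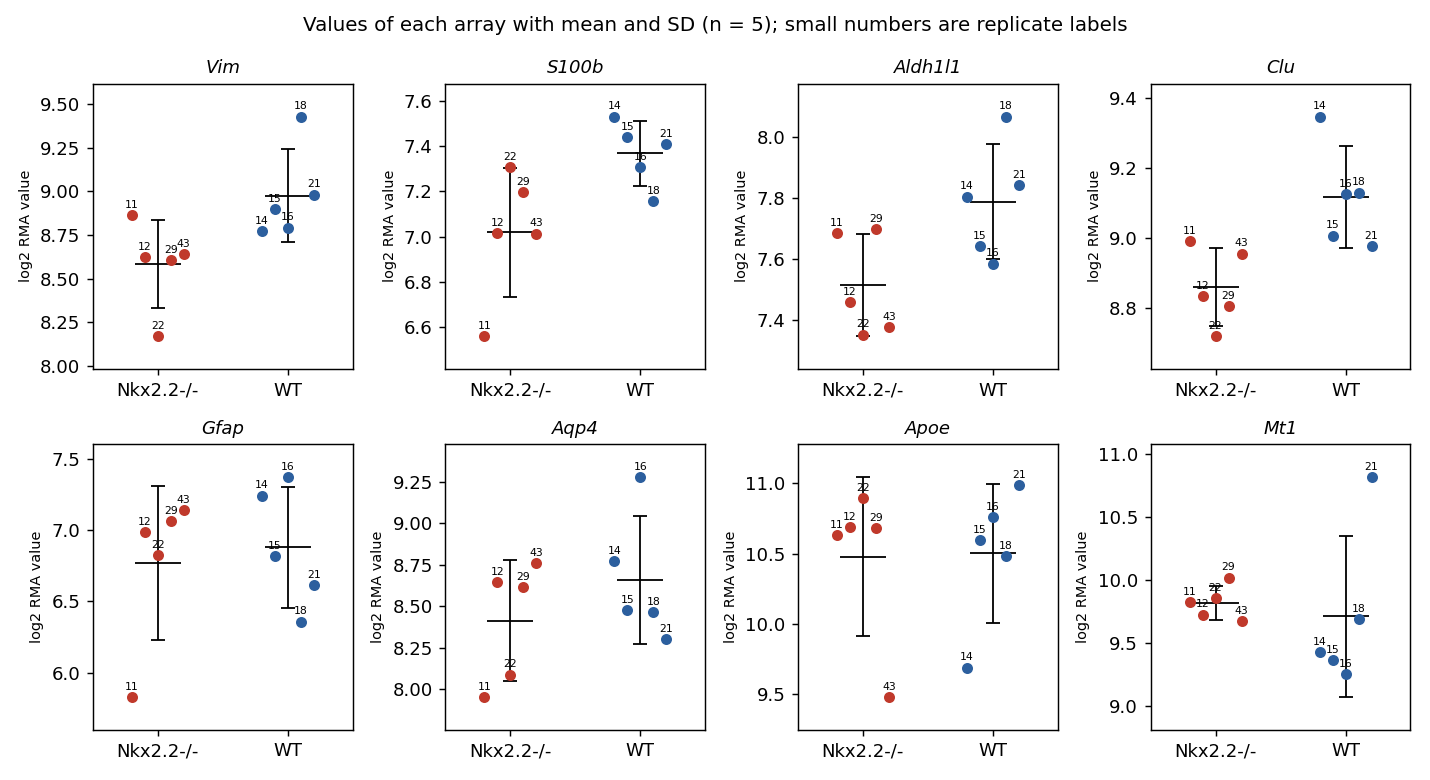
Log2 RMA value of 8 astrocyte and radial glia genes on each of the 10 arrays (points, numbered by replicate), with the mean and SD of 5 Nkx2.2-/- mice (left) and 5 WT mice (right); each panel has its own axis. The groups overlap in all 8 panels, Gfap is lowest in Nkx2.2-/- replicate 11 at 5.83, and Mt1 is highest in WT replicate 21 at 10.82.

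Of 8 genes for transporters, channels and glutamate handling, 7 were positive and Aqp4 was negative, with a median of 0.11. Slc1a2 encodes GLT-1, the main glutamate transporter of mature astrocytes. Its brightest probe set measured 8.30, 8.31, 8.10, 8.61 and 9.15 in the Nkx2.2-/- mice, against 8.58, 7.89, 8.19, 8.11 and 8.22 in the WT mice. Nkx2.2-/- replicate 43 was the highest of the 10 mice, WT replicate 14 was the highest of the WT group, and the remaining values overlapped. The difference was 0.30 (95% interval -0.11 to 0.71), the most positive of the 37 genes. The other 4 Slc1a2 probe sets with 1 symbol were between 0.0094 and 0.075, and 1 more, which the platform also assigns to Gm13872, gave 0.034. Without Nkx2.2-/- replicate 43 and WT replicate 14, the arrays with the wide Gapdh gap, the Slc1a2 difference was 0.23. Without Nkx2.2-/- replicate 43 alone it was 0.13, and with the gene taken as the mean over its probe sets it was 0.096.

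Slc1a3 encodes GLAST, the glutamate transporter already present in radial glia. It measured 8.91, 8.65, 8.94, 8.91 and 9.001 in the Nkx2.2-/- mice, against 8.78, 8.77, 8.56, 9.03 and 9.13 in the WT mice. The WT mice spanned the whole range of the Nkx2.2-/- mice. The difference was 0.027 (95% interval -0.21 to 0.26), and all 6 Slc1a3 probe sets were positive, up to 0.26. Glul encodes glutamine synthetase, which turns the glutamate taken up into glutamine. Its values were 9.96, 9.98, 10.16, 10.32 and 10.08 in the Nkx2.2-/- mice, against 9.71, 9.83, 9.79, 10.004 and 10.40 in the WT mice. WT replicate 21 was the highest of all, while WT replicates 14, 15 and 16 lay below all 5 Nkx2.2-/- mice. The difference was 0.15 (95% interval -0.12 to 0.42).

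Kcnj10, which encodes the Kir4.1 potassium channel, measured 6.68, 6.75, 6.75, 6.79 and 7.03 in the Nkx2.2-/- mice, against 6.94, 6.60, 6.56, 6.66 and 6.79 in the WT mice. The highest value of each group was on the array with the wide Gapdh gap, and the groups overlapped. The difference was 0.092 (95% interval -0.092 to 0.28). Aqp4, the water channel of astrocyte endfeet, measured 7.95, 8.65, 8.09, 8.61 and 8.76 in the Nkx2.2-/- mice, against 8.77, 8.48, 9.28, 8.46 and 8.30 in the WT mice. WT replicate 16 was the highest of the 10 mice, and Nkx2.2-/- replicates 11 and 22 were the lowest. The difference was -0.25 (95% interval -0.70 to 0.21), and the dimmer Aqp4 probe sets gave -0.16 and -0.10. Without WT replicate 16 the Aqp4 difference was -0.091, and with the list of dividing cells as a covariate, which separates poorly from genotype, it was -0.56.

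Ttyh1 encodes a chloride channel protein of radial glia and astrocytes. It measured 9.03, 9.03, 9.07, 9.32 and 9.40 in the Nkx2.2-/- mice, against 9.07, 8.85, 8.86, 9.03 and 9.34 in the WT mice. Nkx2.2-/- replicates 29 and 43 and WT replicate 21 were the 3 highest, so both genotypes shared the top of the range. The difference was 0.14 (95% interval -0.096 to 0.38). Slc4a4, the sodium bicarbonate cotransporter, averaged 8.51 ± 0.46 in Nkx2.2-/- mice and 8.37 ± 0.38 in WT mice, and Atp1b2, a sodium pump subunit that also acts in glial adhesion, averaged 10.10 ± 0.20 in Nkx2.2-/- mice and 10.002 ± 0.16 in WT mice. Their differences were 0.13 and 0.094, within the spread between mice. The genes shared by radial glia and astrocytes are Sox9, Nfia, Nfib, Slc1a3 and Ttyh1, and all 5 were positive, from 0.0031 to 0.14. Counted with radial glia they turned the median of that group to -0.0081.

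Hepacam and Mlc1 encode partner proteins that hold astrocyte endfeet together. Hepacam measured 7.62, 7.59, 7.66, 7.83 and 7.49 in the Nkx2.2-/- mice, against 7.41, 7.41, 7.37, 7.62 and 7.82 in the WT mice. Nkx2.2-/- replicate 29 and WT replicate 21 were the highest of their groups at nearly the same level. The difference was 0.11 (95% interval -0.094 to 0.31), and Mlc1 averaged 6.58 ± 0.11 in Nkx2.2-/- mice and 6.63 ± 0.15 in WT mice. Fgfr3, the fibroblast growth factor receptor expressed by radial glia and astrocytes, measured 8.39, 8.78, 8.79, 8.99 and 8.90 in the Nkx2.2-/- mice, against 8.71, 8.51, 8.41, 8.60 and 8.92 in the WT mice. The lowest value was that of Nkx2.2-/- replicate 11 and the groups overlapped throughout. The difference was 0.14 (95% interval -0.12 to 0.40). Ntsr2, a neurotensin receptor, averaged 6.43 ± 0.19 in Nkx2.2-/- mice and 6.47 ± 0.25 in WT mice, and F3, the tissue factor of coagulation, averaged 5.16 ± 0.27 in Nkx2.2-/- mice and 5.13 ± 0.062 in WT mice. Their differences were -0.042 and 0.035, smaller than the spread between mice.

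Among 5 enzymes, 2 were positive and 3 negative. Aldh1l1 encodes a folate enzyme widely used as a marker of all astrocytes, with values of 7.69, 7.46, 7.35, 7.70 and 7.38 in the Nkx2.2-/- mice, against 7.80, 7.64, 7.59, 8.07 and 7.84 in the WT mice. WT replicates 14, 18 and 21 lay above all Nkx2.2-/- mice, while Nkx2.2-/- replicates 11 and 29 lay above WT replicates 15 and 16. The difference was -0.27 (95% interval -0.49 to -0.050), or 1.21-fold, with an unadjusted p of 0.0208. The dimmer Aldh1l1 probe set gave -0.049. With the list of dividing cells as a covariate, which separates poorly from genotype, the difference was -0.075. The part of dividing cells in the Aldh1l1 values was not tested.

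Aldoc, the aldolase of astrocytes, pointed the other way. Its brightest probe set averaged 11.47 ± 0.20 in Nkx2.2-/- mice and 11.36 ± 0.20 in WT mice, a difference of 0.11 (95% interval -0.14 to 0.36), and its dimmer probe set averaged 7.43 in Nkx2.2-/- mice and 6.92 in WT mice, a difference of 0.50 with an unadjusted p of 0.019. That dimmer probe set is the 1 member probe set that was higher by the looser rule, and its interval of 0.10 to 0.90 holds the value of the brighter one. Acsbg1, which activates long fatty acids, averaged 6.36 ± 0.14 in Nkx2.2-/- mice and 6.37 ± 0.11 in WT mice. Cbs, an enzyme of cysteine synthesis, averaged 6.52 ± 0.11 in Nkx2.2-/- mice and 6.48 ± 0.25 in WT mice. Its brightest probe set also carries a maker's suffix for probes that can match other transcripts. Pla2g7, a secreted phospholipase, averaged 8.29 ± 0.51 in Nkx2.2-/- mice and 8.39 ± 0.46 in WT mice, with a spread between mice larger than its difference of -0.099.

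**Figure D3:**
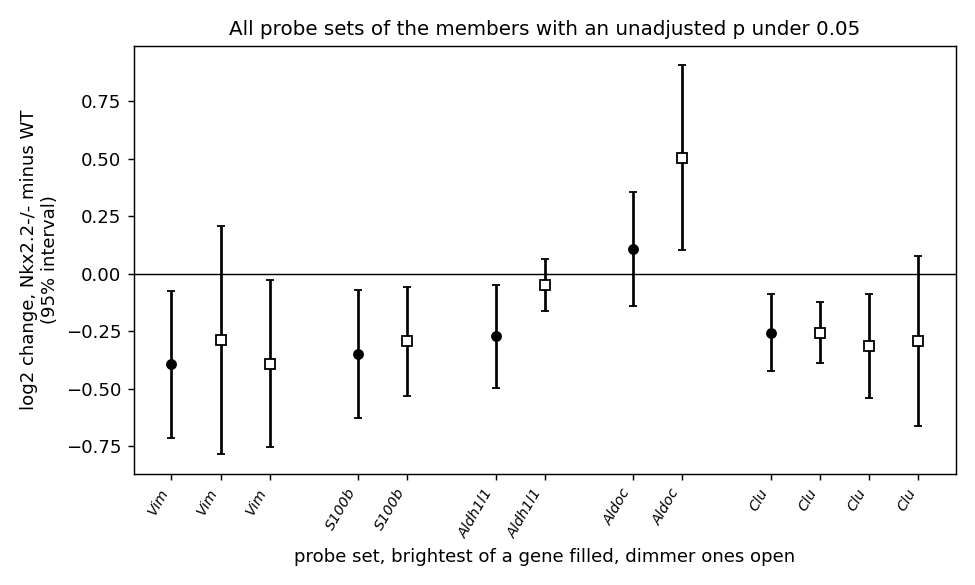
Log2 difference, Nkx2.2-/- minus WT, with 95% interval for every probe set of the 5 genes that had a probe set at an unadjusted p under 0.05; filled points are the brightest probe set of a gene, open ones the dimmer. All 4 Clu, 3 Vim, 2 S100b and 2 Aldh1l1 probe sets lie below 0, and both Aldoc probe sets lie above it at 0.11 and 0.50.

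The 6 secreted proteins were 3 positive and 3 negative. Clu encodes clusterin, a chaperone secreted by astrocytes and carried on lipoproteins. Its brightest probe set measured 8.99, 8.83, 8.72, 8.80 and 8.95 in the Nkx2.2-/- mice, against 9.35, 9.01, 9.12, 9.13 and 8.98 in the WT mice. The groups came close to separating, since Nkx2.2-/- replicate 11 alone lay above the lowest WT mouse, replicate 21. The difference was -0.26 (95% interval -0.42 to -0.089), or 1.19-fold, with an unadjusted p of 0.00636, the lowest among the 37 genes. The other 3 Clu probe sets gave -0.26, -0.31 and -0.29. All 4 measure the same RNA and are not independent, and 3 of them carry the maker's suffix for probes that can match other transcripts. The choroid plexus also makes clusterin, and 6 of its 7 genes were negative, with a median of -0.28 and Ttr at 10.43 ± 2.39 in Nkx2.2-/- mice and 11.46 ± 1.39 in WT mice. With the mean of the choroid plexus list as a covariate the Clu difference was -0.25. That fit was added after seeing the data, and the part of choroid plexus in the Clu values was not tested beyond it. Over all its alternatives the Clu difference ran from -0.29 to -0.14.

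Apoe encodes the main lipoprotein of astrocytes. It measured 10.63, 10.69, 10.90, 10.68 and 9.48 in the Nkx2.2-/- mice, against 9.69, 10.60, 10.76, 10.48 and 10.99 in the WT mice. Nkx2.2-/- replicate 43 and WT replicate 14, the 2 arrays with the wide Gapdh gap, lay below the other 8, which were between 10.48 and 10.99. The difference was -0.025 (95% interval -0.67 to 0.62), and without those 2 arrays it was 0.021. Cst3 encodes cystatin C, a protease inhibitor. Its values were 10.61, 10.57, 10.93, 10.96 and 10.67 in the Nkx2.2-/- mice, against 10.48, 10.49, 10.56, 10.53 and 10.999 in the WT mice. WT replicate 21 was the highest of the 10 mice, and the other 4 WT mice lay below all 5 Nkx2.2-/- mice. The difference was 0.13 (95% interval -0.11 to 0.38).

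Sparc and Sparcl1 encode matrix proteins that astrocytes secrete at synapses, Sparc opposing synapse formation and Sparcl1 (hevin) promoting it. Sparc measured 10.13, 10.06, 10.21, 10.23 and 10.16 in the Nkx2.2-/- mice, against 10.25, 10.39, 9.99, 10.39 and 10.27 in the WT mice. All 5 Nkx2.2-/- mice lay inside the WT range. The difference was -0.099 (95% interval -0.26 to 0.063), and the other Sparc probe sets gave -0.23 and 0.011. Sparcl1 measured 10.84, 10.86, 10.84, 11.30 and 11.24 in the Nkx2.2-/- mice, against 10.98, 10.60, 10.89, 10.83 and 10.94 in the WT mice. Nkx2.2-/- replicates 29 and 43 were the highest, and the other 3 lay inside the WT range. The difference was 0.17 (95% interval -0.076 to 0.41), opposite in sign to that of Sparc. The contrast between the 2 genes was not tested. Agt, which encodes angiotensinogen, averaged 7.34 ± 0.34 in Nkx2.2-/- mice and 7.16 ± 0.54 in WT mice, and its WT values ran from 6.49 in replicate 14 to 7.99 in replicate 21.

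Metallothioneins bind zinc and copper, and Mt1 and Mt2 are switched on by metals and by glucocorticoids, while Mt3 is the form of brain. The promoter windows of the 3 genes are shown because they carry different numbers of matches to the metal response element, the site through which zinc acts. They run from 250 bases before the start to 50 after it, on the plus strand, from RefSeq of GRCm38.p6, with chr8:94178839-94179138 for Mt1, chr8:94172368-94172667 for Mt2 and chr8:94152357-94152656 for Mt3. Capitals mark matches to TGCACNC or TGCGCNC on either strand, which did not overlap.
Mt1: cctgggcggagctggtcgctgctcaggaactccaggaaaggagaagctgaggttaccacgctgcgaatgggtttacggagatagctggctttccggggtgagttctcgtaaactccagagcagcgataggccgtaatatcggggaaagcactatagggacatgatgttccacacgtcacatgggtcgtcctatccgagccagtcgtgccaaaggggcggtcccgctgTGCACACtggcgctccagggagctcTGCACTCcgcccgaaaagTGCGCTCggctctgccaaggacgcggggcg
Mt2: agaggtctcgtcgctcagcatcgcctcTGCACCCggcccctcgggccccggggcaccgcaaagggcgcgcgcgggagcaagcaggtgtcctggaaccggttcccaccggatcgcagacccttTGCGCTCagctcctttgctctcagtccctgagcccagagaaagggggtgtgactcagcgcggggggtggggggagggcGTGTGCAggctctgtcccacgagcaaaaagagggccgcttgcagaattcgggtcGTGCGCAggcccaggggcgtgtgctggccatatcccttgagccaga
Mt3: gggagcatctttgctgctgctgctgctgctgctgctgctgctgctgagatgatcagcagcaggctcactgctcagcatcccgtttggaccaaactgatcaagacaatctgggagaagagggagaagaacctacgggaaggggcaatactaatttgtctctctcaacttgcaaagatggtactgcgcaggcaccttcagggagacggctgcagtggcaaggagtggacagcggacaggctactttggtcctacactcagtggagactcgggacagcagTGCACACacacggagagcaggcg
The windows held 3 matches for Mt1, 4 for Mt2 and 1 for Mt3. One or more matches stood in 25.7% of the 32851 windows of all genes and in 9 of the 37 windows found for 31 of the genes. A match is a description of the letters and not a site shown to be used.

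Mt1 measured 9.82, 9.73, 9.86, 10.02 and 9.68 in the Nkx2.2-/- mice, against 9.43, 9.36, 9.26, 9.69 and 10.82 in the WT mice. WT replicate 21 was far above every other mouse, WT replicates 14, 15 and 16 lay below all 5 Nkx2.2-/- mice, and WT replicate 18 lay just above Nkx2.2-/- replicate 43. The difference was 0.11 (95% interval -0.45 to 0.67). The brightest Mt1 probe set carries a maker's suffix for probes that can match other transcripts, and the dimmer one gave 0.054. Mt2 measured 9.03, 9.19, 9.31, 9.58 and 9.36 in the Nkx2.2-/- mice, against 8.94, 8.96, 8.82, 9.19 and 10.38 in the WT mice. Here too WT replicate 21 was far above the rest and WT replicates 14, 15 and 16 lay below all 5 Nkx2.2-/- mice. The difference was 0.035 (95% interval -0.54 to 0.61). Mt3 measured 8.71, 8.58, 8.97, 8.76 and 8.41 in the Nkx2.2-/- mice, against 8.55, 8.65, 8.73, 8.75 and 9.29 in the WT mice, with WT replicate 21 again the highest and the groups otherwise mixed. Its difference was -0.11 (95% interval -0.42 to 0.20).

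Without WT replicate 21, the differences were 0.38 for Mt1 (95% interval 0.17 to 0.60, unadjusted p = 0.0025) and 0.32 for Mt2 (0.072 to 0.56, unadjusted p = 0.0165), with an adjusted p of 0.999975 for both in limma with Benjamini-Hochberg adjustment. Without that mouse 9 member probe sets were higher and 10 lower at an unadjusted p under 0.05, where 1.01% and 2.16% of all probe sets were, and 0 of 89 were called after adjustment. The 9 higher ones were of Mt1, Mt2, Glul, Cst3, Hepacam, Ttyh1, Cbs and Aldoc. WT replicate 21 was the highest of its group for 15 of the 37 genes. It was also the highest WT mouse for 7 of 12 other genes of the metal and glucocorticoid response, whose mean deviation from the 10 arrays was 0.18 in that mouse and between -0.10 and 0.035 in the other WT mice. Among the Nkx2.2-/- mice that mean was highest in replicate 43 at 0.096, the lowest of its group for Mt1 and Mt3. It was lowest in replicate 22 at -0.17, the highest of its group for Mt3. Replicate 29, the highest of its group for Mt1 and Mt2, had 0.064. The part of the 12 genes in the Mt1 and Mt2 values was not tested.

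The spread between mice was wide for these genes. The median SD within groups was 0.199 over the 37 genes, against 0.109 over all genes, and the widest were Apoe at 0.53, Pla2g7 at 0.49, Gfap at 0.48, Mt2 at 0.48, Mt1 at 0.46 and Agt at 0.45. Single mice were extreme for many of the genes at once. Nkx2.2-/- replicate 29 was the highest of its group for 16 of 37 genes and the lowest for 0. Nkx2.2-/- replicate 11 was the lowest of its group for 14 genes, Gfap, S100b, Aqp4 and Mlc1 among them, and the highest for Nes, Vim, Sox9, Nfib and Clu. WT replicate 18 was the highest of its group for Nes, Vim, Sox2, Sox9, Nfia and Aldh1l1 and the lowest for Gfap and S100b.

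**Figure D4:**
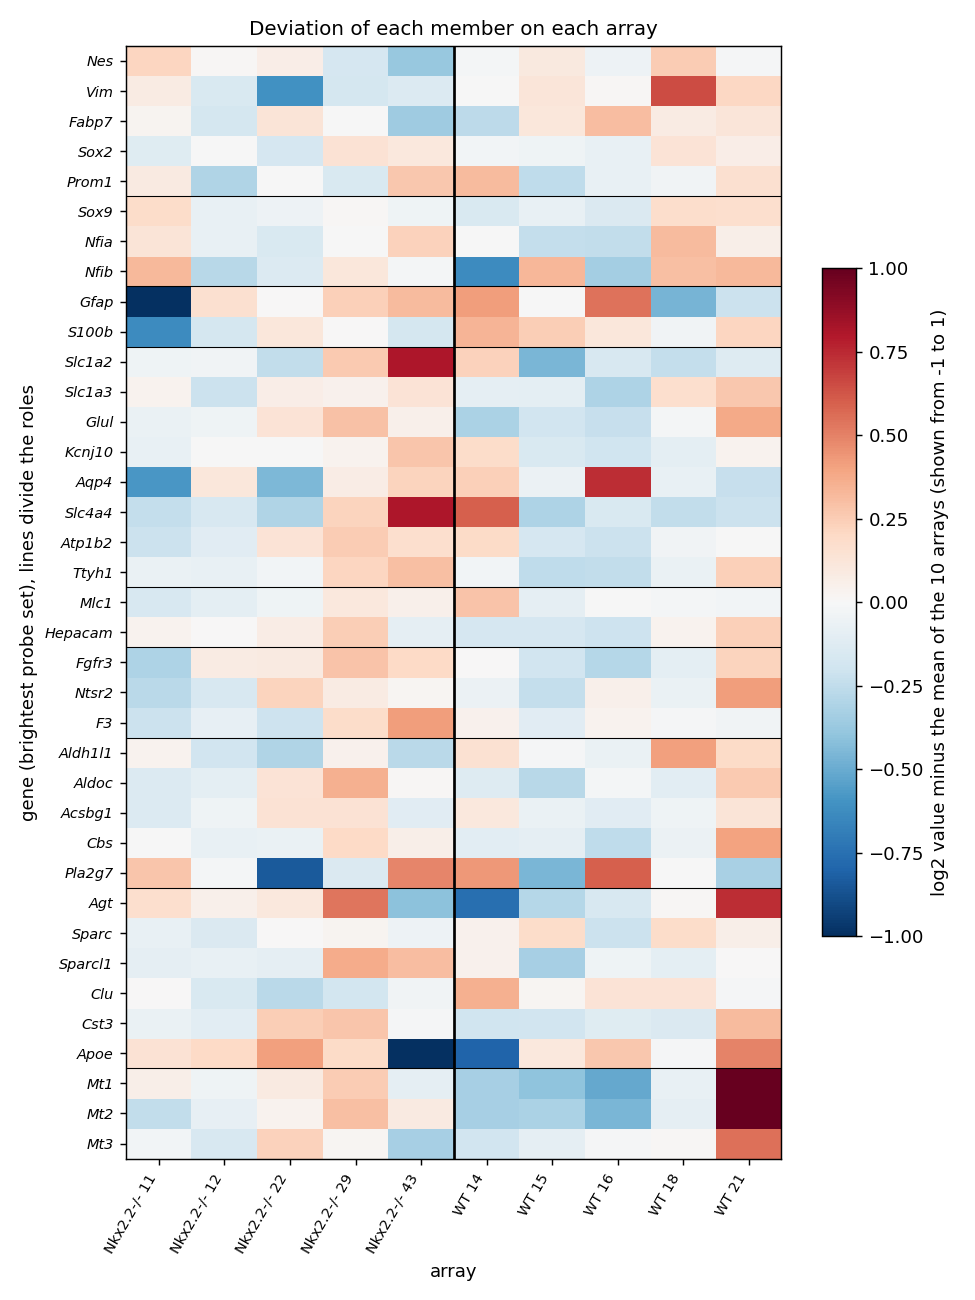
Deviation of each gene's log2 value from its mean over the 10 arrays (colour, shown from -1 to 1), with the 5 Nkx2.2-/- arrays left and the 5 WT arrays right, and genes ordered by role. Gfap is lowest in Nkx2.2-/- replicate 11, Apoe in Nkx2.2-/- replicate 43 and WT replicate 14, and Mt1, Mt2 and Mt3 are highest in WT replicate 21.

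Nkx2.2-/- replicate 11 and WT replicate 18, the mice lowest for Gfap in their groups, were also the ones with the highest level of cerebellum genes, at a mean deviation of 0.48 and 0.67. Cerebellum was not among the labelled tissues. Nkx2.2-/- replicate 11 was the highest of its group for 9 of 12 cerebellum markers, 6 of 7 choroid plexus markers and 11 of 11 markers of dividing cells, and WT replicate 18 for 8, 5 and 10 of them. In a fit with genotype and the cerebellum level, 2 of 89 member probe sets were associated with that level after adjustment (limma, Benjamini-Hochberg), where 0.24% of all probe sets were. These were a Gfap probe set with a slope of -1.31 (adjusted p = 0.0211) and a Sox9 probe set with a slope of 0.36 (adjusted p = 0.0428), both per unit of the cerebellum level. On the 8 arrays without those 2 mice, 0 member probe sets and 0% of all probe sets were associated with it after adjustment. The slopes of these probe sets kept their sign there, at -0.81 for the Gfap one (unadjusted p = 0.024) and 0.51 for the Sox9 one (unadjusted p = 0.00209), and the other 2 Gfap probe sets had slopes of -0.87 (unadjusted p = 0.0468) and -0.073 (unadjusted p = 0.774). Among those 8 arrays WT replicate 21 had a cerebellum level of 0.35, and the others lay between -0.33 and -0.15. These slopes therefore rest largely on that mouse. The 2 probe sets were also picked by the fit on all 10 arrays, which holds these 8, so the 8 arrays are no independent check. With the cerebellum level as a covariate the Gfap difference between the genotypes was -0.29.

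**Figure D5:**
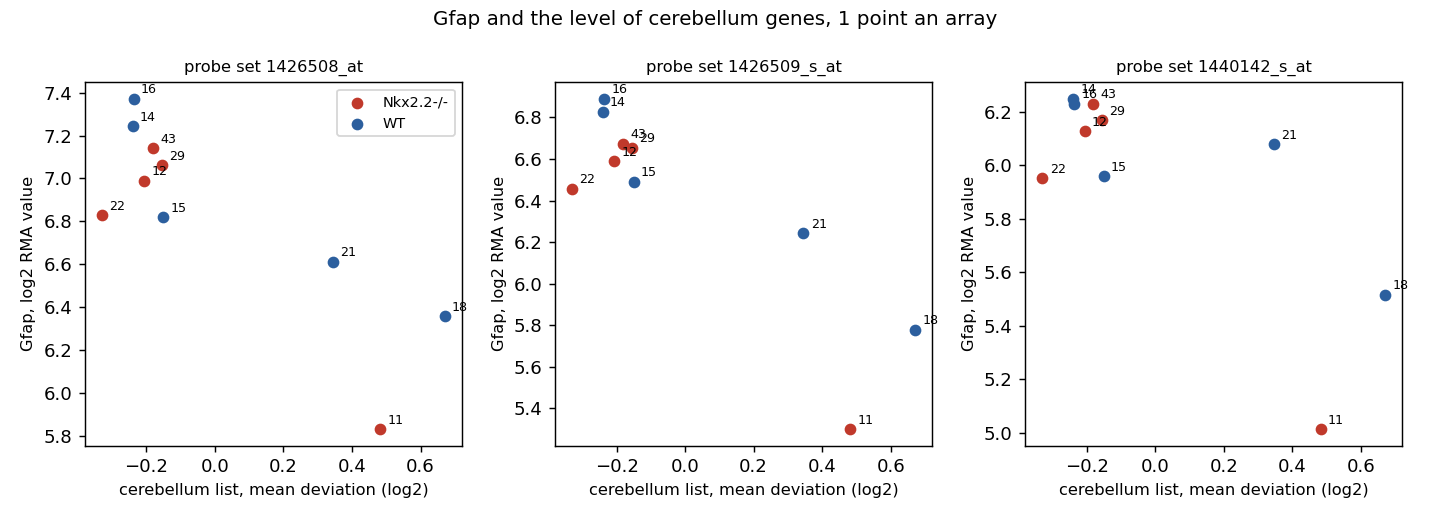
Log2 RMA value of the 3 Gfap probe sets (vertical) against the mean deviation of 12 cerebellum genes (horizontal, log2) on each array, with Nkx2.2-/- mice in red and WT mice in blue. Nkx2.2-/- replicate 11 and WT replicate 18, at 0.48 and 0.67 on the horizontal axis, hold the lowest values of their groups in all 3 panels.

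In a fit with genotype and the Gapdh gap, 10 of 89 member probe sets followed the gap, 5 with a positive and 5 with a negative slope, where 11.8% of all probe sets did. The steepest was Apoe with a slope of -0.36 per unit (adjusted p = 0.000347, limma with Benjamini-Hochberg adjustment). The others were 2 probe sets of Slc4a4 and single ones of Ttyh1, Slc1a2, Sparc, Kcnj10, Fabp7, Slc1a3 and Fgfr3.

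Genes of the same cells outside the 37 gave no call either. Of 24 other astrocyte genes measured, 14 were positive and 10 negative, with a median of 0.030 and 0 called. The one with an unadjusted p under 0.05 was Rgs20, a regulator of G protein signalling, at 6.48 ± 0.15 in Nkx2.2-/- mice and 6.69 ± 0.087 in WT mice. Slc25a18, a mitochondrial glutamate carrier, averaged 8.03 ± 0.23 in Nkx2.2-/- mice and 7.78 ± 0.18 in WT mice. Of 18 other radial glia genes, 6 were positive and 12 negative, with a median of -0.029, and Hes5, a Notch target of progenitors, averaged 7.07 ± 0.22 in Nkx2.2-/- mice and 7.26 ± 0.11 in WT mice. Of 12 genes that reactive astrocytes switch on, 4 were positive and 8 negative, with a median of -0.049. Of these, S1pr3 alone had an unadjusted p under 0.05 (0.0475, limma), at 6.36 ± 0.065 in Nkx2.2-/- mice and 6.57 ± 0.23 in WT mice. Lcn2, the secreted lipocalin of reactive astrocytes, averaged 4.11 ± 0.072 in Nkx2.2-/- mice and 4.27 ± 0.22 in WT mice. Both Lcn2 means were close to 3.52, the lowest value on any array. Cd44, a hyaluronan receptor, averaged 5.79 ± 0.23 in Nkx2.2-/- mice and 5.98 ± 0.16 in WT mice.

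Markers of meninges, microglia, endothelium, ependyma and neurons had 0 called genes in each list. The median difference was -0.38 for 8 meningeal genes, -0.10 for 8 microglia genes, -0.0047 for 8 endothelial genes, -0.028 for 8 ependymal genes and 0.029 for 8 neuronal genes. All 8 meningeal genes were negative, and their mean deviation ran from -0.38 to 0.12 in Nkx2.2-/- mice and from -0.58 to 0.88 in WT mice. Their part in the values of Vim, Apoe, Sparc and the metallothioneins was not tested beyond the covariate fits.

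Caudal Hox genes, which mark cord below the hindbrain, leaned towards positive differences. Of 11 measured, 10 were positive, with a median of 0.072, and 0 were called, while 2 were higher at an unadjusted p under 0.05. Hoxc8 averaged 5.98 ± 1.17 in Nkx2.2-/- mice and 4.65 ± 0.12 in WT mice (unadjusted p = 0.0138), and Hoxd8 averaged 5.57 ± 0.25 in Nkx2.2-/- mice and 5.25 ± 0.14 in WT mice (unadjusted p = 0.0185). The mean deviation of the list ran from -0.077 to 0.33 in Nkx2.2-/- mice and from -0.17 to -0.045 in WT mice. Nkx2.2-/- replicates 11 and 12 lay in the WT range and replicates 22, 29 and 43 above it. A fit with this list therefore separates it poorly from genotype. With the mean of the list as a covariate the median of the astrocyte genes was -0.073, beside 0.035 without it.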

How the data were processed

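Expression was measured on Affymetrix arrays, 1 for each of 5 Nkx2.2-/- and 5 WT mice, from biotinylated cRNA of TRIzol-extracted RNA per the labels' protocols. The authors deposited log2 values, 1 for each probe set and array, and the submitters' processing notes name RMA; the sources used here give neither its version nor the build behind the probes. RMA gives no detection call, compresses differences of dim probe sets, and would hide a shift shared by most genes. Depth does not apply to arrays, and their number limits the precision.

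Of 45101 probe sets, 64 controls were left out. The platform annotation gave 1 gene symbol for 34945 of the other 45037, several for 932 and none used here for 9160. Of the 89 member probe sets, 88 have 1 symbol. All 45037 were fitted in R 4.3.3 with limma 3.58.1 (lmFit, eBayes) on genotype alone, adjusted by Benjamini-Hochberg at 0.05, and the brightest probe set over the 10 arrays stands for a gene. Groups come from the sample titles. Mean deviations of marker lists, taken over the 10 arrays, served as covariates in alternatives; a quantile normalization, other priors, array weights, single arrays left out and the Gapdh gap are the others. The choroid plexus and dividing cell covariates and the 8 arrays without Nkx2.2-/- replicate 11 and WT replicate 18 were added after seeing the data, as were the fit without WT replicate 21 shown per probe set and the tests of the cerebellum and Gapdh terms.

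The members and lists were chosen with earlier results of these data known, so no list has a p-value. Values of every array are given for 13 genes always and for the 10 others of lowest unadjusted p, and other lists name at most 4 genes by lowest unadjusted p. The fit was tested on simulated data, 10 drawings of the comparison over 45037 probe sets. It recovered 74.6% of differences of 0.5, 97.2% of 1 and 99.4% of 1.5, and 4.86% of called probe sets were unchanged. Each drawing changed more probe sets than were called in the data, which makes the adjustment less strict. Its noise was independent between probe sets, unlike that of genes measured on the same arrays. The shares recovered can therefore be higher than those of the real comparison. The median SD within groups was 0.0911 over all probe sets, against 0.199 over the 37 genes. A wider spread makes a call harder, and the simulation was not repeated for the 37 genes alone. Promoter windows, found for 31 of the 37 genes, are RefSeq's for GRCm38.p6. The tables were made in Python 3.11.15 with pandas 2.3.3, and the plots with matplotlib 3.10.9.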

Additional observations from a re-analysis of the deposited data

Results flagged for a closer look

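In 9 of the 74 groups of 5 mice that 37 genes give, 1 mouse stood apart from the other 4 by more than Dixon's 95% criterion. Chance alone gives about 1 in 20 such groups, and genes measured on the same arrays are not independent. Among Nkx2.2-/- mice, Gfap was low in replicate 11 at 5.83, where the next lowest mouse had 6.83. Slc1a3 was low in replicate 12 at 8.65, beside 8.91 in the next lowest. Apoe was low in replicate 43 at 9.48, beside 10.63 in the next lowest.

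Among WT mice, Slc4a4 was high in replicate 14 at 9.04 and Mlc1 in the same mouse at 6.89, beside 8.29 and 6.60 in the next highest. The other 4 were all in WT replicate 21. There Cst3 measured 10.999, Mt1 10.82, Mt2 10.38 and Mt3 9.29, while the next highest WT mouse had 10.56, 9.69, 9.19 and 8.75. Replicate 43 and replicate 14 are the arrays with the wide gap between 3 prime and 5 prime Gapdh probe sets, and their part in the Apoe, Slc4a4 and Mlc1 values was not tested beyond the fits that include the gap or leave those arrays out.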

How the results depend on the processing

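No member probe set was called under any of the alternatives, which were a second quantile normalization, a common median, the brighter part of the probe sets, 1 probe set a gene or the mean over them, other priors, array weights, covariates, a threshold of 0.1 and leaving out arrays (0 of 89, or 0 of the 72 or 37 left). The lowest adjusted p of any gene's brightest probe set under them was 0.0645, for S100b with the choroid plexus list as a covariate, where its difference was -0.47, with a range of -0.66 to -0.23 over all its alternatives. At an unadjusted p under 0.05 the count of member probe sets was 9 of 89, 19 without WT replicate 21 (9 higher, 10 lower) and 4 with the caudal Hox list as a covariate. The shares of all probe sets past that threshold were 3.43%, 3.17% and 4.58%, in that order. Over all probe sets 23 were called, 11 with 1 probe set a gene or with the caudal Hox covariate, 12 with the mean over each gene's sets, and 15 with the list of dividing cells as a covariate. The median of the astrocyte genes was 0.035 and lay between -0.073 (caudal Hox covariate) and 0.096 (without WT replicate 21). That of the radial glia genes was -0.10 and stayed negative, from -0.17 to -0.0081.

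Of the 37 genes, 12 kept the sign of their difference under every alternative, Vim, S100b, Aldh1l1, Clu, Slc1a2, Fabp7 and Aqp4 among them, and 25 changed sign under at least 1. In the fit on genotype alone with all arrays, none of those 25 genes had a difference larger than 0.18 in either direction. The cause of the sign changes was not tested. Under a second quantile normalization, the difference was 0.021 for Sox2 and 0.018 for Acsbg1. With each gene as the mean over its probe sets, the difference was -0.037 for Sox9. With array weights, the difference was -0.030 for Sox9, -0.020 for Nfia, -0.18 for Nfib, 0.0017 for Gfap, -0.081 for Slc1a3, -0.024 for F3 and 0.081 for Apoe. With the Gapdh difference as a covariate, the difference was -0.0079 for F3 and 0.12 for Apoe. With the cerebellum list as a covariate, the difference was 0.020 for Apoe. With the caudal Hox list as a covariate, the difference was -0.026 for Slc1a3, -0.043 for Glul, -0.066 for Atp1b2, -0.025 for Fgfr3, -0.0055 for F3, -0.14 for Aldoc, -0.032 for Cbs, 0.27 for Pla2g7, -0.094 for Agt, -0.11 for Cst3, -0.080 for Mt1 and -0.24 for Mt2. With the meninges list as a covariate, the difference was -0.030 for Sox9, -0.045 for Slc1a3, -0.0029 for Aldoc, -0.041 for Cbs, -0.013 for Agt, -0.16 for Mt1 and -0.22 for Mt2. With the choroid plexus list as a covariate, the difference was 0.022 for Apoe. With the list of dividing cells as a covariate, the difference was 0.12 for Nes, -0.11 for Slc4a4, -0.035 for Atp1b2, -0.045 for Fgfr3, -0.082 for F3, -0.032 for Aldoc, 0.0081 for Pla2g7, 0.027 for Apoe and -0.12 for Mt2. On the 8 arrays other than Nkx2.2-/- replicate 11 and WT replicate 18, the difference was 0.041 for Sox2, -0.0025 for Nfib and 0.016 for Acsbg1. Without Nkx2.2-/- replicate 43 and WT replicate 14, the difference was -0.011 for Sox9, -0.15 for Nfib, -0.023 for Slc1a3, -0.049 for F3, 0.047 for Acsbg1, 0.021 for Apoe and -0.061 for Mt2. Leaving out 1 mouse at a time gave -0.044 to 0.027 for Acsbg1, -0.23 to 0.22 for Apoe, -0.013 to 0.15 for Cbs, -0.064 to 0.093 for F3, -0.24 to 0.12 for Gfap, -0.088 to 0.0093 for Mlc1, -0.0057 to 0.38 for Mt1, -0.075 to 0.32 for Mt2, -0.18 to 0.015 for Mt3, -0.0070 to 0.13 for Nfia, -0.15 to 0.087 for Nfib, -0.11 to 0.058 for Ntsr2, -0.23 to 0.099 for Pla2g7, -0.11 to 0.032 for Prom1, -0.048 to 0.096 for Slc1a3, -0.051 to 0.30 for Slc4a4, -0.058 to 0.019 for Sox2 and -0.031 to 0.059 for Sox9.

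No analysis by litter was possible because the sources used here do not give which mice shared a litter. The 95% intervals give the precision of 5 arrays a group. RMA draws the differences of dim probe sets towards 0 and gives no detection call to flag such probe sets. The covariates are means of marker lists read from the same arrays, and those of dividing cells and of caudal Hox genes separate poorly from genotype. The Nkx2.2-/- and WT mice were not identified by litter, so mice of 1 litter count as separate replicates and p-values measure the spread between mice.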

Other observations

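The match to the NK2 core TNAAGTG, a short motif bound by proteins of the Nkx2 family, was read in the promoter windows of these genes on both strands. It stood in 11.5% of the 32851 windows of all genes and in 4 of the 37 windows of astrocyte and radial glia genes, those of Apoe, Mlc1, Nfia and Prom1. Their differences were -0.025, -0.054, 0.049 and -0.041. These letters describe the windows and say nothing of binding.

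Of the oligodendrocyte precursor genes, which share progenitors with astrocytes, 5 of 8 were positive with a median of 0.052 and 0 called. Pdgfra, the growth factor receptor of precursors, averaged 8.39 ± 0.38 in Nkx2.2-/- mice and 7.87 ± 0.14 in WT mice, and Gpr17, a receptor of cells about to differentiate, averaged 7.33 ± 0.22 in Nkx2.2-/- mice and 7.72 ± 0.16 in WT mice. Their differences of 0.52 and -0.39 had unadjusted p-values of 0.00766 and 0.00479 in limma, and neither passed Benjamini-Hochberg adjustment over all probe sets. Olig2, a transcription factor of the lineage, averaged 7.57 ± 0.14 in Nkx2.2-/- mice and 7.44 ± 0.06 in WT mice.

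Of 8 mural cell genes 1 was positive and 7 were negative, with a median of -0.046 and 0 called. The most negative was Rgs5, a marker of pericytes. It averaged 7.39 ± 0.23 in Nkx2.2-/- mice and 7.78 ± 0.17 in WT mice, with an unadjusted p of 0.00546 in limma that did not pass adjustment.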
